A study of Mus musculus with 11 samples.

Results

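Mttp, Lpgat1, Elovl5, Stard3 and Mboat1 are genes of lipoprotein assembly and lipid synthesis that have been reported as targets of the microRNA miR-30c. They were taken by their gene symbols from a list that was set with earlier results of these data known. Rows for 4 of the 5 genes were found among the 13636 genes of the deposited liver table. Mboat1, an acyltransferase of lysophospholipids, had no row under its symbol or an older symbol, and its expression was not analysed here.

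The livers came from male mice of the inbred strain C57BL/6J that began a Western diet when they were 8 weeks old. After 1 month of diet the mice were injected for 6 weeks with a mimic of miR-30c (4 libraries), with a scramble oligomer as the control for the injection of an oligomer (3 libraries) or with PBS, a buffered saline (4 libraries). Both oligomers were given at a dose that rose from 2.5 mg/kg by way of 5.0 mg/kg to 7.5 mg/kg, and the diet was common to the 3 groups. The chemistry, carrier and sequence of the oligomers are not given in the sources used here, nor is it stated that a library stands for 1 mouse. The p-values are therefore about the variation among libraries.

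A microRNA guides an Argonaute protein to messenger RNAs whose 3′ untranslated region (UTR) pairs with its seed, the short stretch near its 5′ end, and such pairing usually lowers the stability or the translation of the messenger. In hepatocytes Mttp encodes the large subunit of the microsomal triglyceride transfer protein. This protein lipidates nascent apolipoprotein B in the endoplasmic reticulum and is needed for secretion of very low density lipoprotein (VLDL). The other genes act on the lipids themselves. Elovl5 elongates polyunsaturated fatty acids, Lpgat1 transfers acyl chains to lysophospholipids, and Stard3 is a late endosomal protein that binds and moves cholesterol.

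The reads implied by the table ranged from 39705157 to 101380174 per library, with a mean of 52702550 in mimic libraries, 79752373 in scramble libraries and 74205926 in PBS libraries. Values are given as scaled CPM, the deposited values, in which read counts are set against library size times a further factor per library. Some highly expressed genes take very different shares of the reads. The 19 rows of major urinary protein (Mup) genes held 12.5% and 11.6% of reads in mimic libraries 1 and 4 and 34.8% and 41.3% in mimic libraries 2 and 3, against 37.9 to 50.0% in scramble and 38.2 to 52.9% in PBS libraries. Serum amyloid A (Saa) rows held 0.699 to 2.61% of reads in mimic libraries, against 0.0101 to 0.0147% in scramble and 0.0102 to 0.0211% in PBS libraries.

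The seed of miR-30c-5p is shared by its family. The mature sequences are shown because the match to the target genes is read from them, with the seed (bases 2 to 8) in capitals. They are RefSeq sequences on mouse build GRCm38.p6. The mature miR-30c-5p is encoded by Mir30c-2 at chr1:23291714-23291736 on the plus strand and by Mir30c-1 at chr4:120769584-120769606 on the minus strand, and Mir30a (chr1:23272274-23272295, plus) and Mir30e (chr4:120772660-120772681, minus) encode close relatives.
miR-30c-5p: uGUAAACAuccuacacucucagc
miR-30a-5p: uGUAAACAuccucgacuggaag
miR-30e-5p: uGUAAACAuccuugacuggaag
In a position by position comparison, miR-30a-5p and miR-30e-5p were identical to miR-30c-5p at 17 bases, the seed included. The differences lay in the 3′ part. The reference held no mature miR-30b or miR-30d, and it held miR-384-5p with the same seed. These were not compared.

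Of the measured genes, Mttp, Lpgat1 and Elovl5 had a match to this seed in the longest annotated 3′ UTR, and Stard3 had none. The search took TGTTTAC (7-base match) and TGTTTACA (8-base match, with a further A) on the transcript strand only, every 8-base match being also a 7-base match. UTRs were those of GENCODE M21 (GRCm38, the assembly also called mm10). Each match is shown 5′ to 3′ in capitals, in a window of 30 bases that ends with the base after the first 7 of the match.
Mttp: cccttgctctctgagagcacagTGTTTACA
Lpgat1 first match: aggctagctcagcccagtaccaTGTTTACA
Lpgat1 second match: ttctgttttcatgatgctgtaaTGTTTACt
Elovl5: gtttggaaggagttgcggcatcTGTTTACA
The Mttp window lies at chr3:138090977-138091006 on the minus strand, in exon 18 of 18, and its match begins at base 71 of a 3′ UTR of 1201 bases. The Lpgat1 windows lie at chr1:191779099-191779128 and chr1:191782667-191782696 on the plus strand, in exon 8 of 8, with matches at bases 587 and 4155 of a UTR of 5721 bases. The Elovl5 window lies at chr9:77984291-77984320 on the plus strand, in exon 8 of 8, with its match at base 1505 of 1711. The Stard3 UTR has 537 bases and held neither the 7-base match nor its 6-base core GTTTAC. The UTR of the unmeasured Mboat1, on chromosome 13, has 1248 bases and held 1 8-base match.

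Matches of this length are common. Of 11491 rows with an annotated 3′ UTR, 16% held a 7-base match and 8.19% an 8-base match. Among the 500 UTRs closest in length, a 7-base match was present in 12.2% for Mttp, 16.8% for Elovl5, 43.8% for Lpgat1 and 6% for Stard3. A match is a description of the letters, not evidence that the site is used.

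The Mttp site differed from the others in its pairing beyond the seed. In the 22 bases before the match, the longest stretch complementary to the 3′ part of miR-30c-5p was 7 bases long, pairing with miRNA bases 16 to 22, and is marked with the seed match by capitals.
Mttp with both stretches: cccttgctctCTGAGAGcacagTGTTTACA
A stretch of at least this length preceded 19 of 2241 seed matches in all UTRs (0.848%). This search let the stretch shift along the UTR. Without a shift, 7 of the 14 miRNA bases 9 to 22 were paired at the Mttp match, and 4.06% of the matches had at least as many. The longest run without a shift was 3 bases, reached at 15.0% of the matches and also at the first Lpgat1 match. Against miR-30a-5p and miR-30e-5p the longest stretch before the Mttp match was 3 bases, a length reached at 93.2% and 95.5% of the matches. Other microRNAs with this seed, miR-30b and miR-30d among them, were not compared, so the stretch is not shown to be particular to miR-30c-5p. For miR-30c-5p the longest stretch was 3 bases before the first Lpgat1 match and 4 bases before the second Lpgat1 match and the Elovl5 match, lengths reached by 95.4% and 53.5% of the matches. Before the first Lpgat1 match it was 5 bases for miR-30a-5p and for miR-30e-5p.

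**Figure D1:**
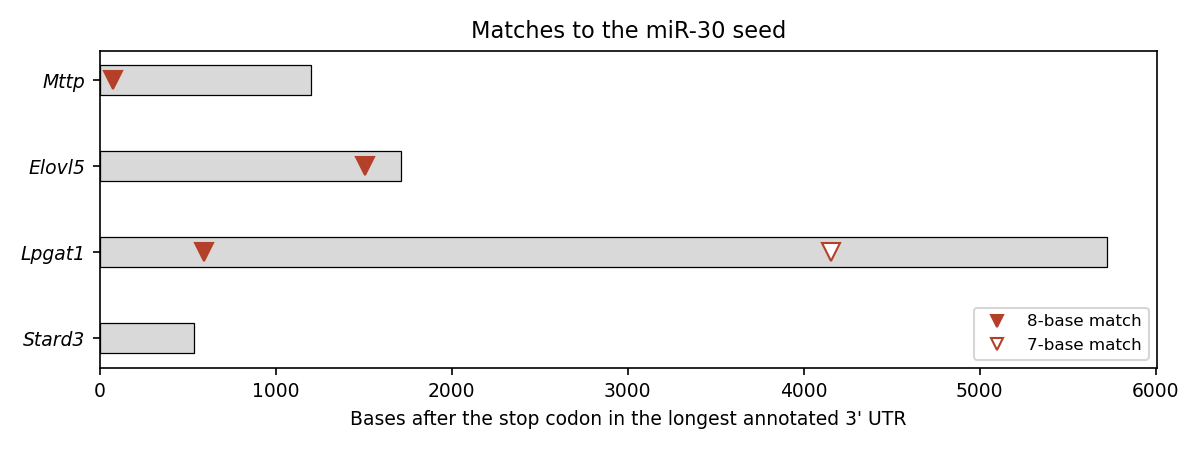
Position of matches to the miR-30 seed in the longest annotated 3′ UTR of each measured gene, in bases after the stop codon. Filled triangles are 8-base matches and the open triangle is a 7-base match. The Mttp match sits at base 71, close to the stop codon, while the Elovl5 match at base 1505 lies 200 bases from the end of its UTR.

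Mttp, Elovl5 and Lpgat1 fell in mimic livers against scramble livers, and Stard3 was at like values in the 3 groups. On the log2(scaled CPM + 1) scale, Mttp fell to 0.568, Elovl5 to 0.519 and Lpgat1 to 0.749 of the scramble level. The limma test, fitted on that scale over all genes and libraries, called 3 of the 4 measured genes lower at an adjusted p under 0.05, beside 14.7% of all genes called lower, 17.3% called higher and 32.0% called in either direction. Against PBS livers Mttp and Elovl5 were called lower, 2 of 4, beside 17.1% of all genes called lower, 20.0% called higher and 37.1% called in all. Both comparisons use the same mimic libraries.

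Mttp had 66.4, 59.0, 71.5 and 80.1 scaled CPM in mimic livers 1 to 4, against 119, 117 and 130 in scramble livers and 128, 128, 133 and 143 in PBS livers. The highest mimic library was well under the lowest library of the other groups. Mttp averaged 69.3 ± 8.83 scaled CPM in mimic (SD, n = 4), 122 ± 7.12 in scramble (SD, n = 3) and 133 ± 7.02 in PBS livers (SD, n = 4). The log2 change was -0.82 ± 0.10 (SE, 95% interval -1.03 to -0.60) for mimic against scramble, with a limma adjusted p of 0.000192. It was -0.94 ± 0.09 (interval -1.14 to -0.73) for mimic against PBS, with a limma adjusted p of 4.35e-05. In the first comparison 2.08% of all genes had a lower change than Mttp, and in the second 1.31%.

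Mttp (ENSMUSG00000028158.14) lies at chr3:138089854-138144968 on the minus strand of GRCm38. The protein-coding gene Trmt10a, on the opposite strand, shares 457 exon bases with it. The library kit keeps strand, but whether the counting used strand is not given in the sources used here. Trmt10a had 1.39 to 2.24 scaled CPM over all libraries, a small amount next to Mttp, with means of 1.69 ± 0.239 in mimic (SD, n = 4), 1.99 ± 0.218 in scramble (SD, n = 3) and 1.78 ± 0.238 in PBS livers (SD, n = 4).

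Elovl5, at chr9:77917364-77984519 on the plus strand (ENSMUSG00000032349.13), had 72.0, 74.1, 100.2 and 105 scaled CPM in mimic livers 1 to 4. It had 206, 197 and 117 in scramble livers and 187, 277, 144 and 159 in PBS livers. The groups did not overlap, but scramble library 3 lay closer to mimic library 4 than to the other scramble libraries, and PBS library 2 stood above the rest. The means were 87.9 ± 17.3 in mimic (SD, n = 4), 173 ± 48.9 in scramble (SD, n = 3) and 192 ± 59.2 in PBS livers (SD, n = 4). The log2 change was -0.95 ± 0.25 (SE, interval -1.49 to -0.40) against scramble, with a limma adjusted p of 0.0141, and -1.09 ± 0.23 (interval -1.59 to -0.59) against PBS, with a limma adjusted p of 0.00404. The call against scramble was lost without scramble library 1 (limma adjusted p = 0.0654), without scramble library 2 (0.0544) and without mimic libraries 1 and 4 together (0.0527), with changes of -0.80, -0.83 and -0.95.

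Lpgat1, at chr1:191717834-191784255 on the plus strand (ENSMUSG00000026623.16), had 99.5, 98.9, 102 and 110 scaled CPM in mimic livers 1 to 4, against 161, 129 and 125 in scramble livers and 116, 132, 111 and 132 in PBS livers. Mimic livers were lowest, yet mimic library 4 and PBS library 3 nearly touched, and scramble library 1 was the highest. The means were 103 ± 5.32 in mimic (SD, n = 4), 138 ± 19.96 in scramble (SD, n = 3) and 123 ± 10.8 in PBS livers (SD, n = 4). Against scramble the log2 change was -0.42 ± 0.10 (SE, interval -0.65 to -0.19, limma adjusted p = 0.0111). Without scramble library 1 it was -0.30, with a limma adjusted p of 0.0532. Against PBS the change was -0.25 ± 0.10 (interval -0.46 to -0.04) and missed the threshold, with a limma adjusted p of 0.0577. This gene was near the threshold, since the adjusted p against PBS fell to 0.0337 without scramble library 1 and to 0.0469 in a fit of the 2 groups alone.

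Stard3, at chr11:98358368-98381112 on the plus strand (ENSMUSG00000018167.10), was the gene without a seed match and was also the least abundant. It had 6.30, 8.63, 6.77 and 6.71 scaled CPM in mimic livers 1 to 4, against 6.36, 7.06 and 6.76 in scramble livers and 7.33, 6.76, 6.74 and 7.63 in PBS livers. The groups overlapped throughout, with mimic library 2 the highest of the 11. The means were 7.10 ± 1.04 in mimic (SD, n = 4), 6.73 ± 0.351 in scramble (SD, n = 3) and 7.11 ± 0.442 in PBS livers (SD, n = 4). The log2 change was 0.06 ± 0.10 (SE, limma adjusted p = 0.651) against scramble, and its interval of -0.15 to 0.27 leaves room for modest changes in either direction. Against PBS it was -0.0085 ± 0.089 (interval -0.20 to 0.19, limma adjusted p = 0.95).

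**Figure D2:**
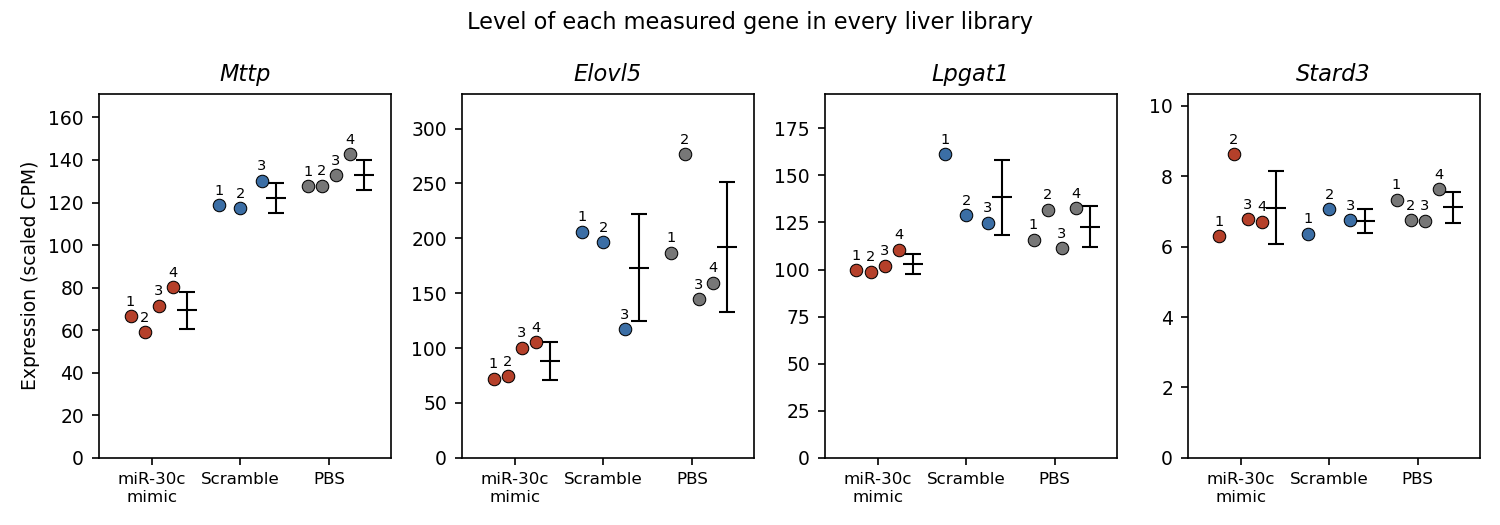
Level of each measured gene (scaled CPM, axes from 0) in every library, with numbers for the replicates and bars for the group mean ± SD. Mimic libraries (red) lie below all scramble (blue) and PBS (grey) libraries for Mttp, Elovl5 and Lpgat1, while for Stard3 the groups overlap.

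The mimic values of Mttp, Elovl5 and Lpgat1 were lower than all 7 scramble and PBS values, as was so for 11.5% of all genes. Lower without overlap were 19.2% of all genes in mimic against scramble and 14.5% in mimic against PBS.

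Scramble livers did not differ detectably from PBS livers in any of the 4 genes. The log2 change was -0.12 ± 0.10 for Mttp (SE, interval -0.34 to 0.10), -0.14 ± 0.25 for Elovl5 (interval -0.69 to 0.40), 0.16 ± 0.10 for Lpgat1 (interval -0.06 to 0.39) and -0.07 ± 0.10 for Stard3 (interval -0.28 to 0.14). The values overlapped in each case, beside 4.72% of all genes without overlap. With limma 0 of all genes (0%) were called in this comparison, 0% higher and 0% lower, and 3.18% had an unadjusted p under 0.05. The intervals allow differences of the size seen for Lpgat1 between mimic and PBS livers.

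**Figure D3:**
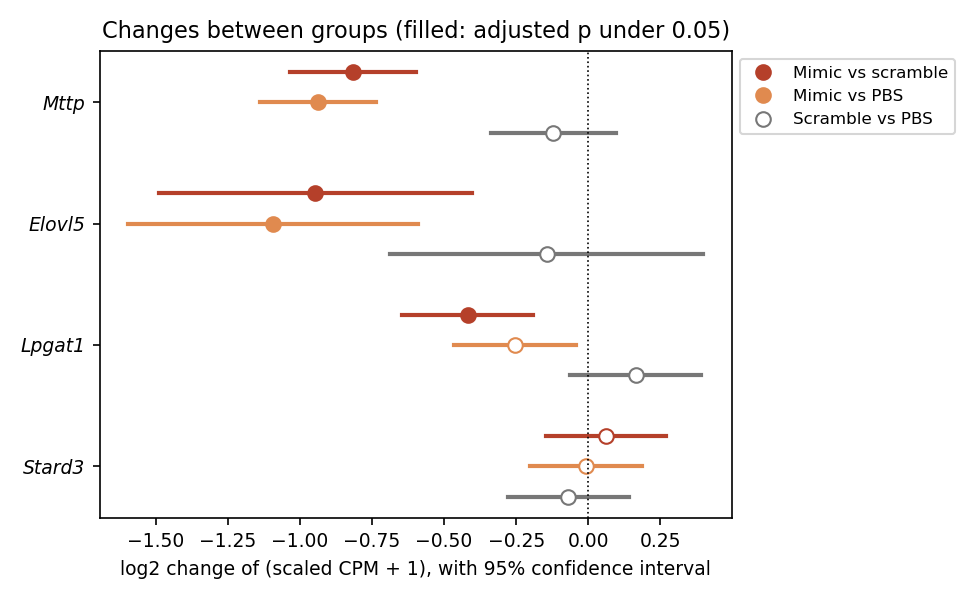
Change of each measured gene on the log2(scaled CPM + 1) scale with its 95% confidence interval, for mimic against scramble, mimic against PBS and scramble against PBS. Filled points have a limma adjusted p under 0.05. Mttp and Elovl5 are filled in both mimic comparisons, at -0.82 to -1.09, Lpgat1 only against scramble, and Stard3 in neither.

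The spread between libraries was larger than counting error. Mttp had 3901 to 8956 implied reads per library, Lpgat1 5965 to 10875, Elovl5 4499 to 14896 and Stard3 363 to 589. Counting alone gives a coefficient of variation of at most 1.60% for Mttp, 1.29% for Lpgat1, 1.49% for Elovl5 and 5.25% for Stard3. Within groups the observed coefficient of variation was 5.28 to 12.8% for Mttp and 5.18 to 14.4% for Lpgat1. It was 19.7 to 30.9% for Elovl5, the most variable of the genes, and 5.22 to 14.6% for Stard3, which in its tightest group is the level of counting error.

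Per length of exon the order of the genes differed between groups. The length was the union of all annotated exons of a gene, 6206 bases for Mttp and 7610 for Lpgat1. The order of genes depends on this choice, and other lengths were not tried. Elovl5 was the most abundant, with 25.0 ± 4.91 scaled CPM per kb in mimic (SD, n = 4), 49.2 ± 13.9 in scramble (SD, n = 3) and 54.5 ± 16.8 in PBS livers (SD, n = 4). Lpgat1 came next in mimic livers, at 13.5 ± 0.699 scaled CPM per kb against 11.2 ± 1.42 for Mttp. In PBS livers Mttp was above Lpgat1, at 21.4 ± 1.13 against 16.1 ± 1.43 scaled CPM per kb. In scramble livers Mttp at 19.7 ± 1.15 and Lpgat1 at 18.2 ± 2.62 overlapped. Stard3 was lowest in each group, with libraries at 1.77 to 2.43 in mimic, 1.79 to 1.99 in scramble and 1.89 to 2.15 scaled CPM per kb in PBS livers.

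Ratios of these per-length levels within a library do not depend on how libraries are scaled. The ratio of Mttp to Stard3 was 6.04, 3.92, 6.05 and 6.84 in mimic livers, against 10.7, 9.51 and 11.1 in scramble and 9.99, 10.8, 11.3 and 10.7 in PBS livers. It was lower in each mimic library than in any other. For plain values, 11.5% of all genes were lower in mimic than in all scramble and PBS libraries. That share was not computed for ratios. The ratio of Elovl5 to Stard3 ranged from 8.68 to 15.8 in mimic livers, 17.5 to 32.7 in scramble livers and 21.1 to 41.3 in PBS livers, again without overlap. The ratio of Lpgat1 to Stard3 averaged 6.87 ± 1.04 in mimic (SD, n = 4), 9.67 ± 1.89 in scramble (SD, n = 3) and 8.09 ± 0.746 in PBS livers (SD, n = 4), with overlap.

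The ratio of Mttp to Lpgat1 was 0.819, 0.732, 0.859 and 0.889 in mimic livers, against 0.903, 1.12 and 1.28 in scramble livers and 1.35, 1.19, 1.46 and 1.32 in PBS livers. Scramble library 1, the highest for Lpgat1, came closest to the mimic range. The ratio of Elovl5 to Mttp overlapped between groups, at 2.23 ± 0.237 in mimic (SD, n = 4), 2.53 ± 0.823 in scramble (SD, n = 3) and 2.57 ± 0.881 in PBS livers (SD, n = 4). A ratio shows unequal change, not which gene changed.

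How libraries are scaled sets the level to which a fall is referred. When values were divided by library totals, the median mimic change of all genes was 0.49 (log2) against scramble and 0.51 against PBS. There 5498 genes were called higher and 110 lower in mimic against scramble, and none of the 3 falls was called. On that scale Mttp changed by -0.23 (limma adjusted p = 0.445) and Elovl5 by -0.36 (0.301), while Lpgat1 turned to 0.17 (0.597) and Stard3 stood at 0.58 (0.0524) against scramble and was called higher against PBS at 0.53 (0.0475). Relative to the median of all genes the same changes were -0.73 for Mttp, -0.86 for Elovl5, -0.33 for Lpgat1 and 0.09 for Stard3. With totals that leave out the Mup and Saa rows, the median shifted by 0.19, the split was 4215 higher to 556 lower, and Mttp was called at -0.60 (limma adjusted p = 0.00284) and Elovl5 and Lpgat1 were not, at -0.73 (0.0522) and -0.20 (0.272). Without mimic libraries 1 and 4, Mttp changed by -0.90 and Lpgat1 by -0.45 (limma adjusted p = 0.000595 and 0.0353).

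**Figure D4:**
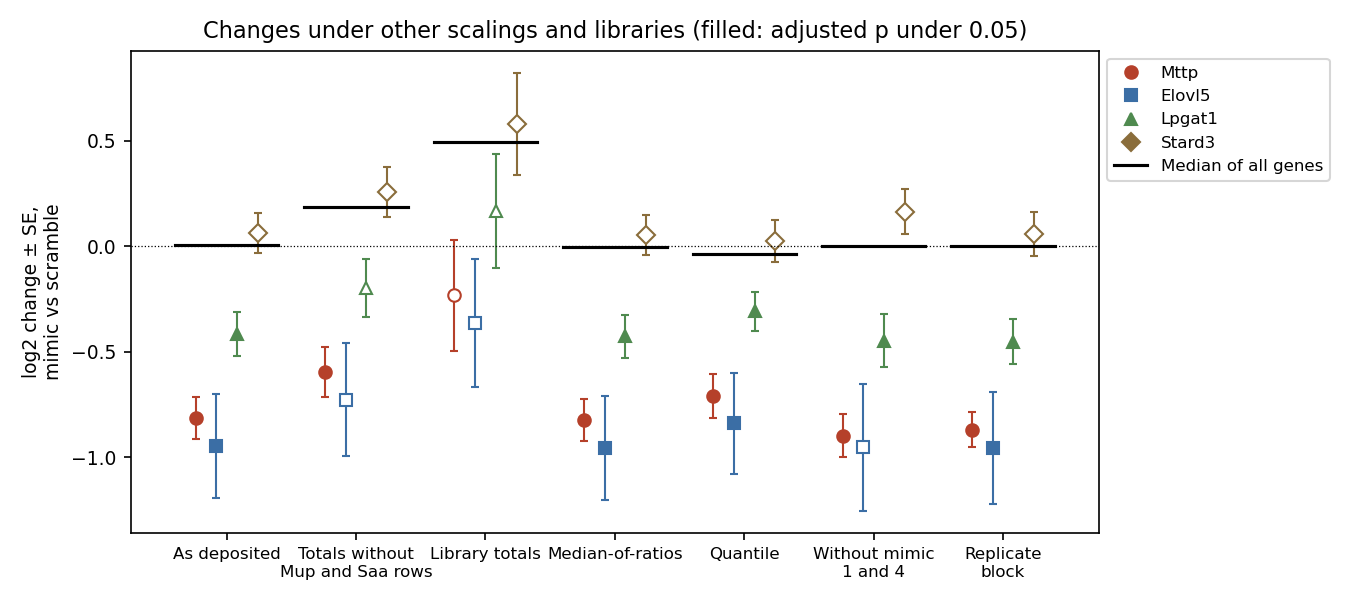
Change of each measured gene in mimic against scramble livers (log2, ± SE) under other scalings, without mimic libraries 1 and 4, and with the replicate number as a block. Filled points have a limma adjusted p under 0.05 and bars are the median of all genes. The order of the genes is kept, and under library totals all points and the median move up, with Lpgat1 at 0.17.

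Hepatocyte markers and markers of other liver cells were read from lists written from memory. Their calls stand beside 17.3% of all genes called higher and 14.7% lower against scramble. Against PBS these shares were 20.0% and 17.1%. In bulk liver, fewer cells of a type and less RNA per cell cannot be told apart. The 10 hepatocyte markers, all measured, summed to 22407 to 27911 scaled CPM in mimic, 30624 to 35174 in scramble and 28886 to 35548 in PBS livers. Of the 10, 0 were called higher and 1 lower against scramble, and 1 higher and 2 lower against PBS. Abundant genes weigh most in this sum. Alb averaged 12092 in mimic, 17305 in scramble and 17543 in PBS livers. Cyp2e1, the marker called lower against scramble, averaged 3666, 5821 and 5293. Apoc3, Cps1, Ass1 and Fgb had positive changes against scramble (0.10, 0.01, 0.14 and 0.49). Per 1000 of that sum, Mttp stood at 2.80 ± 0.508 in mimic (SD, n = 4), 3.81 ± 0.461 in scramble (SD, n = 3) and 4.20 ± 0.504 in PBS livers (SD, n = 4), and the mimic and scramble ranges overlapped. On the same scale Elovl5 stood at 3.53 ± 0.715 in mimic, 5.35 ± 1.43 in scramble and 6.13 ± 2.34 in PBS livers. Lpgat1 was at like values in the 3 groups, at 4.14 ± 0.516 in mimic, 4.32 ± 0.804 in scramble and 3.90 ± 0.682 in PBS livers, its mimic mean being above that of PBS. Stard3 stood at 0.285 ± 0.0351 in mimic, 0.209 ± 0.0103 in scramble and 0.225 ± 0.0241 in PBS livers, so that its mimic mean was the highest. For each of the 4 genes the mimic range overlapped that of at least 1 other group.

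Markers of other cells moved in the same libraries, beside 17.3% of all genes called higher and 14.7% lower against scramble. All 8 genes of a general macrophage list (Lgals3, Trem2, Gpnmb, Itgam, Ccr2, Cd68, Ly6c2 and Cd9) were called higher against scramble. Whether these genes leave out resident Kupffer cells was not tested. Their sums were 97.5 to 128 in mimic, 9.05 to 11.4 in scramble and 8.30 to 17.4 scaled CPM in PBS livers. Of 8 resident Kupffer cell markers 5 were called lower, with sums of 40.2 to 82.1 in mimic, 68.9 to 132 in scramble and 72.6 to 143 in PBS livers. Of 9 stellate cell markers 6 were called higher and 1 lower, with sums of 185 to 356 in mimic, 91.1 to 102 in scramble and 62.9 to 101.3 in PBS livers. These lists had the same counts of calls against PBS, beside 20.0% higher and 17.1% lower over all genes.

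Smaller lists gave the following. Of 8 sinusoidal endothelial markers 1 was called higher and 2 lower against scramble, beside 17.3% higher and 14.7% lower over all genes. Against PBS 0 were called higher and 5 lower, beside 20.0% and 17.1%. Their sums were 52.0 to 85.6 in mimic, 82.8 to 104 in scramble and 80.1 to 108 in PBS livers. Of 7 neutrophil markers 4 were measured and called higher, at sums of 15.1 to 30.2 in mimic, 1.14 to 1.76 in scramble and 1.65 to 2.64 in PBS livers. Of 6 bile duct markers Sox9 and Spp1 were measured, and Krt19, Krt7, Epcam and Cftr had no row. The sums of the 2 were 35.4 to 42.5 in mimic, 13.5 to 22.8 in scramble and 11.7 to 20.6 in PBS livers. Of these, 1 was called higher against scramble and 2 against PBS. The intestine also expresses much Mttp, and of its 6 markers Apoa4 and Fabp2, which liver expresses too, were measured. Their sums were 339 to 865 in mimic, 293 to 467 in scramble and 259 to 866 in PBS livers, and 1 of them was called lower in each mimic comparison. Vil1, Cdx2, Lct and Sis had no row. The 8 lymphocyte markers had no row. The part of the cell mixture in the changes of the 4 genes was not tested.

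The genes around each target were taken from lists also written from memory. VLDL assembly and export genes, the partners of Mttp, went both ways in mimic against scramble livers. Of 17 measured genes, 2 were called higher and 5 lower, beside 17.3% higher and 14.7% lower over all genes. The median log2 change was 0.07, beside 0.00 over all genes. Tm6sf2, a protein of the secretory pathway needed for lipidation of VLDL, rose to 11.8 ± 1.28 scaled CPM in mimic (SD, n = 4), against 5.03 ± 0.736 in scramble (SD, n = 3) and 4.70 ± 0.838 in PBS livers (SD, n = 4), a change of 1.09 against scramble (limma adjusted p = 0.00014). Mia3, which helps load large cargo at endoplasmic reticulum exit sites, fell to 77.3 ± 9.65 in mimic, against 133 ± 5.04 in scramble and 130 ± 16.7 in PBS livers, a change of -0.78 (limma adjusted p = 0.00086). Aadac, a lipase of the endoplasmic reticulum, fell to 93.9 ± 4.64 in mimic, against 152 ± 8.88 in scramble and 155 ± 12.7 in PBS livers, a change of -0.69 (limma adjusted p = 0.000222).

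The other called genes of that list were Sar1b, Mia2 and the carboxylesterase Ces1d, which fell, and Pla2g12b, which rose. Ces1d, named after its values were seen, had the largest change of the list at -1.89 (limma adjusted p = 0.0038). It belongs to a cluster of similar esterase genes, and its value is uncertain where the counting could share reads between them. Apob, the protein onto which Mttp loads lipid, had 2366 ± 91.9 scaled CPM in mimic (SD, n = 4), 3260 ± 601 in scramble (SD, n = 3) and 3312 ± 428 in PBS livers (SD, n = 4). Its change of -0.45 against scramble was not called (limma adjusted p = 0.0568) and that of -0.48 against PBS was (0.029). Against PBS the list had 2 higher and 6 lower of 17, beside 20.0% higher and 17.1% lower over all genes, with a median of -0.07. Under library totals the list had 9 higher and 1 lower, beside 5498 higher and 110 lower of all 13636 genes. Aadac and Mia3 stood there at -0.11 and -0.20 and were not called.

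Transcription factors and cofactors known to act on Mttp mostly did not pass the test. Of 13 measured, 1 was called higher and 3 lower against scramble, beside 17.3% higher and 14.7% lower over all genes, with a median of -0.17. Against PBS 1 was called higher and 4 lower, beside 20.0% and 17.1% over all genes, with a median of -0.27. Foxo1, which activates Mttp when insulin signalling is low, fell to 22.8 ± 3.60 scaled CPM in mimic (SD, n = 4), against 38.5 ± 8.59 in scramble (SD, n = 3) and 31.9 ± 6.26 in PBS livers (SD, n = 4). Its change against scramble was -0.72 (limma adjusted p = 0.0108). Ppara, the fatty acid receptor of hepatocytes, fell to 150 ± 31.9 in mimic, against 237 ± 31.0 in scramble and 205 ± 13.8 in PBS livers, a change of -0.67 (limma adjusted p = 0.00671). Prox1 was the third that fell.

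Srebf2, the sterol-regulated factor reported to repress Mttp, rose to 15.5 ± 1.30 scaled CPM in mimic (SD, n = 4), against 10.3 ± 0.497 in scramble (SD, n = 3) and 9.38 ± 0.5997 in PBS livers (SD, n = 4), a change of 0.54 (limma adjusted p = 0.000658). Hnf4a, a main activator of Mttp, had 214 ± 25.8 in mimic, 285 ± 83.2 in scramble and 264 ± 17.9 in PBS livers and was not called (-0.38, limma adjusted p = 0.106). Under library totals 2 of the 13 were called higher and 0 lower, beside 5498 higher and 110 lower of all 13636 genes. Foxo1 stood there at -0.15 and Ppara at -0.09. Without mimic libraries 1 and 4, 1 was called higher and 1 lower, beside 1577 higher and 971 lower of all 13636 genes. Foxo1 was not called in that setting (-0.53, limma adjusted p = 0.0961).

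Elongation and desaturation genes, the pathway of Elovl5, held calls in both directions. Of 16 measured, 6 were called lower and 1 higher against scramble, beside 14.7% lower and 17.3% higher over all genes, with a median of -0.30. Against PBS 7 were called lower and 2 higher, beside 17.1% and 20.0% over all genes, with a median of -0.20. Elovl6, which elongates saturated and monounsaturated chains, fell to 15.9 ± 3.27 scaled CPM in mimic (SD, n = 4), against 36.9 ± 5.91 in scramble (SD, n = 3) and 47.2 ± 8.14 in PBS livers (SD, n = 4), a change of -1.17 (limma adjusted p = 0.000549). Elovl3, another elongase of saturated chains, fell to 9.10 ± 2.26 in mimic, against 21.4 ± 5.97 in scramble and 31.5 ± 4.10 in PBS livers, a change of -1.13 (limma adjusted p = 0.00181).

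Elovl1, an elongase of very long chains, rose to 14.5 ± 2.169 scaled CPM in mimic (SD, n = 4), against 8.56 ± 0.704 in scramble (SD, n = 3) and 8.94 ± 0.578 in PBS livers (SD, n = 4), a change of 0.69 (limma adjusted p = 0.000797). Hsd17b12, Hacd2, Fads2 and Scd1 fell as well. Elovl2, which acts after Elovl5 on polyunsaturated chains, had 195 ± 46.7 in mimic, 225 ± 57.5 in scramble and 289 ± 40.4 in PBS livers. It was not called against scramble (-0.20, limma adjusted p = 0.475) and was called lower against PBS (-0.58, limma adjusted p = 0.0339). Under library totals 4 of the 16 were called higher and 1 lower, beside 5498 higher and 110 lower of all 13636 genes. Elovl6 was still called there at -0.61 (limma adjusted p = 0.0473) and Elovl3 was not, at -0.59 (0.0624).

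Glycerophospholipid acyltransferases, the enzymes around Lpgat1, gave 0 calls of 11 measured against scramble with limma, beside 32.0% called over all genes. Of the 11, 5 had an unadjusted limma p under 0.05. Over all genes that share was not computed, and it cannot be under the 32.0% called after adjustment. The median of the list was -0.08. Against PBS 1 was called higher (Agpat1) and 2 lower (Lclat1 and Agpat3), beside 20.0% and 17.1% over all genes. Lpcat3, the main lysophosphatidylcholine acyltransferase of liver, had 58.9 ± 2.79 scaled CPM in mimic (SD, n = 4), 58.8 ± 2.31 in scramble (SD, n = 3) and 57.9 ± 1.41 in PBS livers (SD, n = 4). Mboat7, a relative of the unmeasured Mboat1, had 13.6 ± 1.18 in mimic, 14.4 ± 1.12 in scramble and 15.3 ± 1.45 in PBS livers. Both are named after their values were seen. Under library totals 3 of the 11 were called higher and 0 lower, beside 5498 higher and 110 lower of all 13636 genes.

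Proteins with a START lipid-binding domain and late endosomal cholesterol carriers, the group around Stard3, had 7 lower and 2 higher of 21 measured against scramble, beside 14.7% lower and 17.3% higher over all genes, with a median of -0.17. Against PBS 8 were lower and 3 higher, beside 17.1% and 20.0% over all genes, with a median of -0.16. Pctp, a carrier of phosphatidylcholine, fell to 35.7 ± 5.13 scaled CPM in mimic (SD, n = 4), against 65.0 ± 4.76 in scramble (SD, n = 3) and 49.6 ± 4.72 in PBS livers (SD, n = 4), a change of -0.86 (limma adjusted p = 0.000349). Acot12, a thioesterase of acetyl-CoA, fell to 70.8 ± 13.8 in mimic, against 130 ± 14.9 in scramble and 115 ± 12.7 in PBS livers, a change of -0.89 (limma adjusted p = 0.00121). Npc2, which hands cholesterol to Npc1 in the lysosome, rose to 44.6 ± 5.30 in mimic, against 23.1 ± 1.95 in scramble and 23.8 ± 4.37 in PBS livers, a change of 0.92 (limma adjusted p = 0.000627).

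Npc1 itself was among the called falls of that list, with Stard4, Stard7, Col4a3bp and Vapa, and Stard3nl, the closest relative of Stard3, rose. Under library totals 6 of the 21 were called higher and 0 lower, beside 5498 higher and 110 lower of all 13636 genes. Pctp at -0.28 and Acot12 at -0.30 were not called there. With totals that leave out the Mup and Saa rows, 4215 of all 13636 genes were called higher and 556 lower. There 5 VLDL genes were called higher and 5 lower, 4 elongation and desaturation genes higher and 2 lower, and 4 genes of the START list higher and 2 lower. On that scale 2 of the factors acting on Mttp were called higher and 2 lower, and 3 acyltransferases higher and 0 lower. Without mimic libraries 1 and 4, 1577 of all 13636 genes were called higher and 971 lower. In that setting 1 VLDL gene was called higher and 4 lower, and 2 elongation and desaturation genes higher and 4 lower. There was 1 acyltransferase called higher and 0 lower, and 2 genes of the START list higher and 6 lower.

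**Figure D5:**
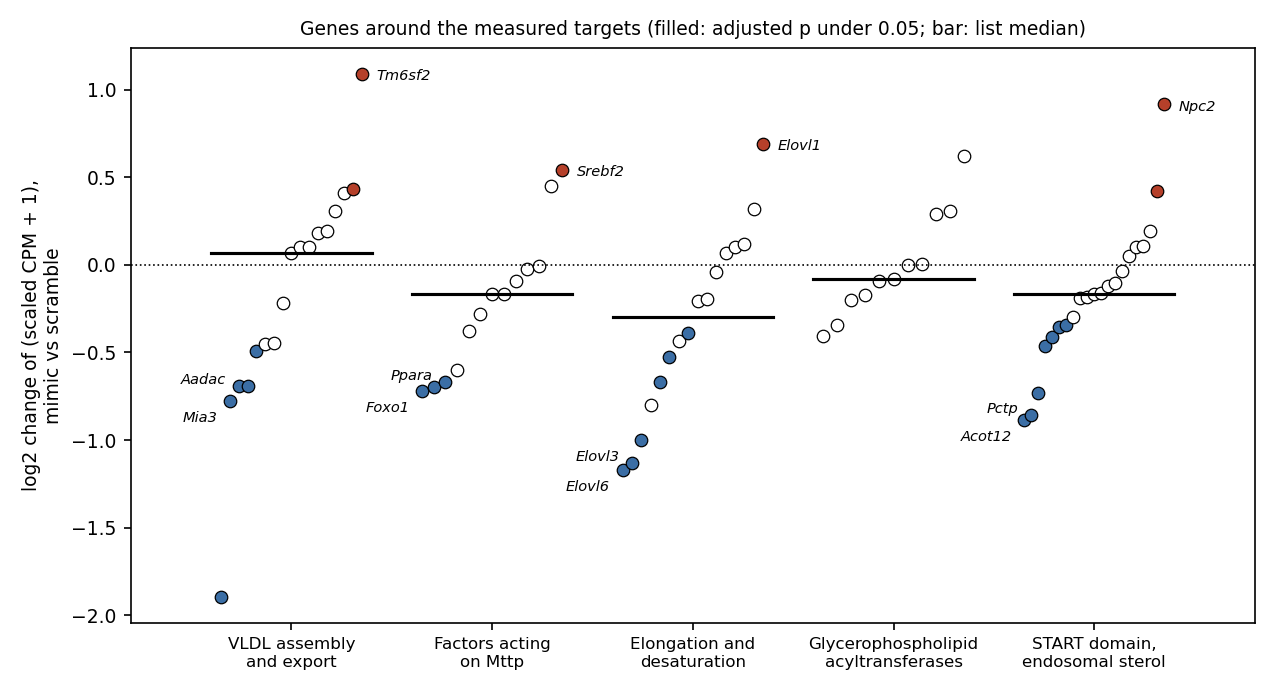
Change of each measured gene of the lists around the targets in mimic against scramble livers, on the log2(scaled CPM + 1) scale. Filled points have a limma adjusted p under 0.05 (blue lower, red higher), bars are list medians and the labelled genes were named by rule. Lists hold calls in both directions except the acyltransferases, which hold 0, and under library totals most calls are higher, as over all genes.

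Genes with a seed match in these lists were called lower, called higher or not called. Of the 3 VLDL genes with a 7-base match, Mia2 and Mia3 were called lower and Surf4 was not called. Of the elongases with a match, Elovl6 was lower and Elovl1 higher. The 4 factors with a match, Nr5a2, Ppargc1a, Ppargc1b and Nr2f2, were not called against scramble. Col4a3bp and Vapa, with a match, were called lower, and Lipa and Lclat1, also with a match, were not called. Over all rows with an annotated UTR, 23.5% of 1839 with a match and 13.3% of 9652 without one were called lower in mimic against scramble, with median changes of -0.11 and 0.03. Against PBS 27.6% and 15.4% were called lower, and UTR length was not matched between these sets.

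Over the 11 libraries the genes with levels most like Mttp were Mto1 (Pearson r of log2(scaled CPM + 1) 0.98), Clcn4-2 (0.98) and Eif4g2 (0.97), and 291 genes reached 0.9. The most like Elovl5 were Fam136a (0.96), the lipid droplet gene Cidec (0.95) and Adamts13 (0.93), with 18 genes at 0.9 or more. The most like Lpgat1 were Ddi2 (0.93), Nt5dc1 (0.92) and Rsc1a1 (0.92). Rsc1a1 lies inside Ddi2 in the annotation, so that their reads may be shared. For Stard3 the closest were Fyn (0.897), Usp12 (0.89) and Fcgr2b (0.88), with 0 genes at 0.9 or more.

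Among the 4 genes themselves, r was 0.73 for Mttp and Lpgat1, 0.82 for Mttp and Elovl5 and 0.79 for Lpgat1 and Elovl5. It was -0.17, -0.18 and -0.26 for Stard3 with Mttp, Elovl5 and Lpgat1. These correlations describe the 11 libraries, which include the difference between groups and share their scaling.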

How the data were processed

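Liver RNA of 11 libraries was sequenced as paired-end 48-base reads from a stranded mRNA kit, per the labels' protocols. The submitters' processing notes name build mm10 and, with no order, edgeR 3.8.6, R 3.1.2, Bowtie, bedtools 2.17.0, SAMtools 0.1.19, FastQC 0.11.3 and bcl2fastq 1.8.4; settings and annotation are not given in the sources used here. The authors deposited 1 scaled signal per gene and library, called scaled CPM here. Deposited columns sum to 605536 to 1504311. In each library 100% of values were whole multiples of 1 step (tolerance 1e-06), from which reads were computed for depth. Counting error was taken from those reads, and the other scalings were computed from the deposited values. Of the rows, 54 were identical to another row. Groups and replicate numbers came from the sample titles.

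For testing, log2(value + 1) of the 11 libraries was fitted by group in limma 3.58.1 under R 4.3.3, with moderated variances that follow a trend on mean level. P-values of all 13636 genes were adjusted together after Benjamini and Hochberg, and 0.05 was the threshold. The pseudocount of 1 understates the change of low genes. The fit was tested on simulated data in which some genes were lowered and the scaling did not shift. That test does not bear on the scaling of these libraries. The design had assumed CPM, and the signal was treated in the same way. Members and lists were chosen with earlier results of these data known, and lists were written from memory. Genes named by rule were the members and, per member, the 3 genes of highest correlation. Per list, the rule took up to 3 called genes with the smallest p in mimic against scramble and 1 called in the opposite direction. Other genes, among them Apob, Hnf4a and Elovl2, were named outside the rule with their values known. Gene models were GENCODE M21 on GRCm38 and microRNAs RefSeq on GRCm38.p6. Alternatives were a pseudocount of 0.25, mean-level filters of 1 and 5, other scalings, a replicate block, array weights, no variance trend, a fit of 2 groups, and libraries left out.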

Additional observations from a re-analysis of the deposited data

Results flagged for a closer look

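In the PBS group Aadac had 136 scaled CPM in library 2, against 159 to 163 in the other 3 PBS libraries, a gap large for the range of the group. In the same library Mia3 had 105 scaled CPM, against 137 to 140 in the other 3. These are 2 of the 32 groups of 4 libraries examined, and chance flags about 1 in 20 groups. Both genes were lower in each mimic library than in PBS library 2.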

How the results depend on the processing

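The counts of called genes and the changes of the 4 genes were recomputed under 23 alternatives, 11 of which left out 1 library. Lists and the genes named in them by rule were recomputed under the other scalings and without mimic libraries 1 and 4. Ratios, marker sums, correlations and seed-match shares were not recomputed. Filtering to genes with a mean of at least 5 gave 2816 called genes in mimic against scramble and 3273 against PBS. Without mimic libraries 1 and 4 there were 2548 and 2894. Leaving out 1 library gave 2824 (without scramble library 1) to 4904, 3758 to 5681 and, for scramble against PBS, 0 to 1 (Gadd45a, without PBS library 1), and a fit of those 2 groups alone called 5 (Grk5, Cnbd2, Cep85, Coro2b and Gm13247, named after their values were seen).

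Library totals gave -0.23 and -0.33 for Mttp, -0.36 and -0.49 for Elovl5 and 0.17 and 0.35 for Lpgat1 against scramble and PBS, none called, and 0.53 for Stard3 against PBS, called. Totals without Mup and Saa rows gave -0.20 for Lpgat1 and -0.73 for Elovl5 against scramble, not called, and 0.18 for Stard3 against PBS. Lpgat1 against PBS was called with median-of-ratios factors (-0.26, limma adjusted p = 0.0474) and with the 2 groups alone (-0.25). Elovl5 was -0.95 against scramble and Stard3 0.094 against PBS without mimic libraries 1 and 4, neither called, and Elovl5 in scramble against PBS was 0.016 with library weights. The cause was not tested.

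Leaving out 1 library gave, against scramble, -0.89 to -0.74 for Mttp, -0.49 to -0.30 for Lpgat1, -1.21 to -0.80 for Elovl5 and -0.024 to 0.11 for Stard3. Against PBS it gave -1.01 to -0.86, -0.30 to -0.22, -1.21 to -0.90 and -0.094 to 0.039. Scramble against PBS ranged from -0.29 to 0.11 for Elovl5.

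Replicate numbers do not mark a shared animal or day in the labels, and correlations of same-numbered deviations ran from -0.28 to 0.26, with 6 of 20 cases best with their own number. With the replicate block, 3808, 4584 and 0 genes were called, and no call of the 4 genes changed: against scramble Mttp was -0.87, Lpgat1 -0.45, Elovl5 -0.96 and Stard3 0.06. The count tests edgeR and DESeq2 were planned as alternatives if reads could be recovered. They were not run, since the deposited values are a scaled signal and the reads computed from it were not accepted as recovered counts. Mboat1 has no value. With 363 to 589 implied reads per library, Stard3 had the largest counting error.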
